A study of Mus musculus with 24 samples.

Results

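The upstream landscape of Hand2 was described across 7 lists of histone mark peaks made from mouse limb buds and mouse fibroblasts. Its members were all listed peaks that touched an 800 kb window of chromosome 8 (mm10), from 721 kb before the Hand2 start to 75 kb past its end. Hand2, on the plus strand and 3651 bp long, was the 1 protein-coding gene annotated there by GENCODE. The window held 216 of the 368246 peaks listed on the main chromosomes. These were 80 peaks of H3K27ac in wild-type (WT) limb, 37 of H3K27ac in Shh-/- limb, 31 of H3K4me2 in WT limb, 19 of H3K4me2 in Shh-/- limb, 45 of H3K27me3 in Shh-/- limb, 3 of H3K27ac in control NIH3T3 cells and 1 in purmorphamine-treated NIH3T3 cells. The locus was chosen by position with these lists already known, so its peak counts and states are given as a description.

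The study profiled histone marks by ChIP-seq, in 14 immunoprecipitated and 10 input libraries, to ask which limb enhancers need Hedgehog (HH) signaling. Limb samples were forelimb buds of Swiss Webster embryos at E10.5, with 32 to 35 somites, at about 400000 cells per ChIP and pooled over litters. The mutant carried the Shh null allele, so its limb buds make no SHH ligand, and per the study's methods the samples labelled WT could include heterozygous littermates. NIH3T3 is an embryonic fibroblast line, treated for 48 h with 400 nM purmorphamine, an agonist of Smoothened that switches HH signaling on, or with vehicle. Both NIH3T3 groups also received LIF per the labels. Each list pools both replicates of its condition, so no value had a replicate spread and no difference between conditions was tested. In whole limb buds, fewer acetylated cells and less acetylation per cell cannot be told apart.

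Hand2 encodes a basic helix-loop-helix transcription factor of the posterior limb mesenchyme. It acts before and beside SHH, helping to switch Shh on and antagonising the anterior repressor GLI3, and is also known for its roles in heart and branchial arches. Acetylation of H3K27 is found where enhancers and promoters are in use. H3K4me2 sits on regulatory regions in either state, and H3K27me3 is laid down by Polycomb repressive complex 2 at silenced genes. GLI proteins carry HH signaling to DNA, where they bind the consensus GACCACCCA.

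The cell types were checked on marker promoters, from 2 kb before to 1 kb after the start. H3K27ac lay on 10 of 10 limb mesenchyme marker promoters in WT limb and on 9 of 10 in Shh-/- limb. All 8 fibroblast markers were acetylated in control NIH3T3, against 4 in WT limb. No heart (0 of 4), blood (0 of 3) or ectoderm (0 of 5) marker promoter was acetylated in WT limb, and 1 of 5 endothelial markers was, against 0 of 5 in Shh-/- limb. Muscle precursor markers counted 0 of 3 in WT and 1 of 3 in Shh-/- limb. In control NIH3T3, 5 of 10 limb mesenchyme promoters were acetylated, so these do not all set limb apart from fibroblasts.

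Peaks lying 1 kb or less apart, from any list, were joined into 38 elements. One of them was the gene domain itself, chr8:57310900-57350899, which covered Hand2. The other 37 lay over 20 kb from the gene body and are called distal, 33 of them upstream and 4 downstream. Of the distal elements, 25 were acetylated in limb, 12 in both genotypes, 12 in WT only and 1 in Shh-/- only. Another 4 carried H3K4me2 without acetylation, 7 carried H3K27me3 alone, and 1 was acetylated in NIH3T3 alone. Elements are named below by the distance from Hand2 to their nearest edge.

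The sequences of the 6 distal elements best ranked by the authors in the WT H3K27ac list are shown as 200 bases of the plus strand (GRCm38), with the promoter of Hand2 from RefSeq (GRCm38.p6, 250 bases before the start). Each is centred on the best-ranked WT peak, or on a GLI consensus match where the element held one. Capitals mark that match, which was on the minus strand.
Element 486 kb upstream, chr8:56833724-56833923: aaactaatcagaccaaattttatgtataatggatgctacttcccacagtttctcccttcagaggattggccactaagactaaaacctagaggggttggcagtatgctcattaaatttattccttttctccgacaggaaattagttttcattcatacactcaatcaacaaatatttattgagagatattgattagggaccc
Element 267 kb upstream, chr8:57052849-57053048: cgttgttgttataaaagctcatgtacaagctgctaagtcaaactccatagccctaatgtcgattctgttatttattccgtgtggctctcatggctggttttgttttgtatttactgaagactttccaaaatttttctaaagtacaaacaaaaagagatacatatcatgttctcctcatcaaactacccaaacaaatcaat
Element 357 kb upstream, chr8:56962449-56962648: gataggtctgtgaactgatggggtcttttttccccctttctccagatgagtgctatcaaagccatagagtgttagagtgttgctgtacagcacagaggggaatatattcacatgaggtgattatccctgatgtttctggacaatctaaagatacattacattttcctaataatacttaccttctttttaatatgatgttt
Element 336 kb upstream, chr8:56983168-56983367: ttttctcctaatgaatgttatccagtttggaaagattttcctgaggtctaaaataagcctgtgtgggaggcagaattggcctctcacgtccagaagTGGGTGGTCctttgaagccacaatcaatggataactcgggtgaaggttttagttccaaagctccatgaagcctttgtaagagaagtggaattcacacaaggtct
Element 404 kb upstream, chr8:56915149-56915348: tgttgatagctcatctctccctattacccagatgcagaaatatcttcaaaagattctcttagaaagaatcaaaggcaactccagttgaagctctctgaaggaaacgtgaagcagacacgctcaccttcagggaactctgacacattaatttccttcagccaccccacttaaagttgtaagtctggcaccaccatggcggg
Element 611 kb upstream, chr8:56708949-56709148: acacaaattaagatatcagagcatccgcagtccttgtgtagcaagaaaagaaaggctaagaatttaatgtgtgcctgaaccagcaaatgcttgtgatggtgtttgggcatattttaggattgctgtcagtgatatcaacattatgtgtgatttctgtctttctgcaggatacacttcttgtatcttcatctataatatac
Hand2 promoter, chr8:57320733-57320982: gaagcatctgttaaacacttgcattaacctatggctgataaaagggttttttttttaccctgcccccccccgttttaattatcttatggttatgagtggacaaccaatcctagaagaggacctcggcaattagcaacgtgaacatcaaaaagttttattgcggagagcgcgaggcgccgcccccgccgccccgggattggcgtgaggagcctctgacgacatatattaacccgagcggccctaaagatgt

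The consensus, GACCACCCA on either strand with no mismatch, occurred in 1 of the 37 distal elements. That match, at chr8:56983264-56983272, lay inside the WT-only peak of the element 336 kb upstream. It made 0.244 matches per 10 kb over the 25 distal limb-acetylated elements, beside 0.0899 over all limb-acetylated elements. The first value rests on 1 match, so the difference cannot be read as enrichment. None of the 59 distal WT H3K27ac peaks held the consensus within 300 bp around the peak centre, which allows a share of up to 6.11% (95% Wilson interval), and 0.252% of all 49679 WT peaks did. The Hand2 promoter had no match, as against 0.253% of 32851 RefSeq promoters that had one. The distal WT peaks were poorer in G and C than the list as a whole, with a median GC content of 38% (24.7% to 54%) against 47% for all WT peaks.

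**Figure D1:**
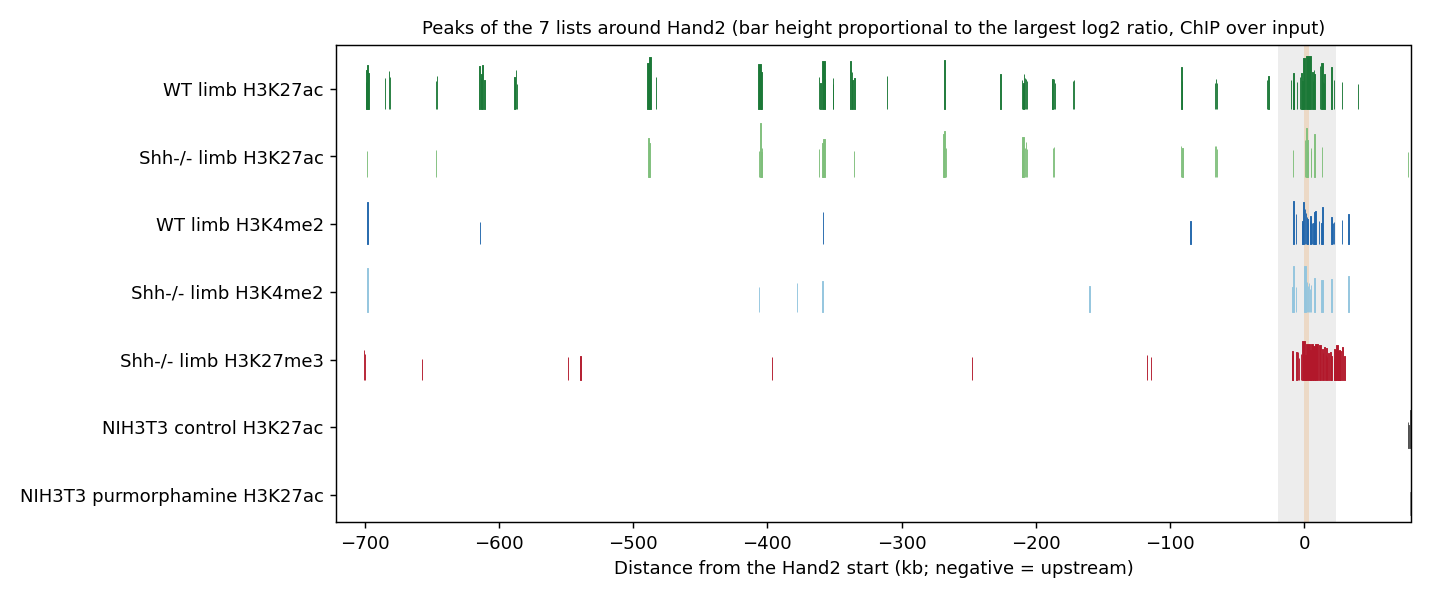
Peaks of the 7 lists by distance from the Hand2 start in kb, 1 row per list, with bar height proportional to the largest log2 ratio of ChIP to input. Grey marks the gene with 20 kb on either side and orange the gene body. WT H3K27ac peaks dot the whole upstream stretch, Shh-/- H3K27ac peaks are fewer, and the 4 NIH3T3 peaks sit at the right edge.

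Across the distal upstream stretch of 701 kb, H3K27ac peaks covered 25100 bp in WT limb and 9250 bp in Shh-/- limb. H3K4me2 covered 1300 bp in WT and 1600 bp in Shh-/- limb, and H3K27me3 covered 1550 bp. Neither NIH3T3 list had a peak there. The 23 acetylated upstream elements reached to 701 kb before the gene, with a median spacing of 23.1 kb and a widest gap of 96.7 kb.

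Of the 59 distal WT H3K27ac peaks, 39 overlapped no Shh-/- H3K27ac peak (66.1%, 95% Wilson interval 53.4% to 76.9%, counting error only), whereas 48.5% of the whole WT list overlapped none. Peaks of 1 element are not independent, so this interval is too narrow, and the whole list also holds peaks near genes. With peaks of a list within 1 kb merged first, 15 of 26 were WT-only (57.7%). The whole-list share was not recomputed that way. Weakly ranked peaks are unshared more often, so the better-ranked 50% of the WT list was also compared. There 17 of 26 distal peaks were WT-only (65.4%, 46.2% to 80.6%) against 24.9% of those peaks over the genome. In the other direction, 6 of 28 distal Shh-/- peaks had no WT peak (21.4%, 10.2% to 39.5%), below the 38.4% of the whole Shh-/- list. At the level of elements, 12 of 24 distal WT-acetylated elements had no Shh-/- peak (50%), beside 39.1% of 7123 WT-acetylated elements lying over 20 kb from every protein-coding gene.

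**Figure D2:**
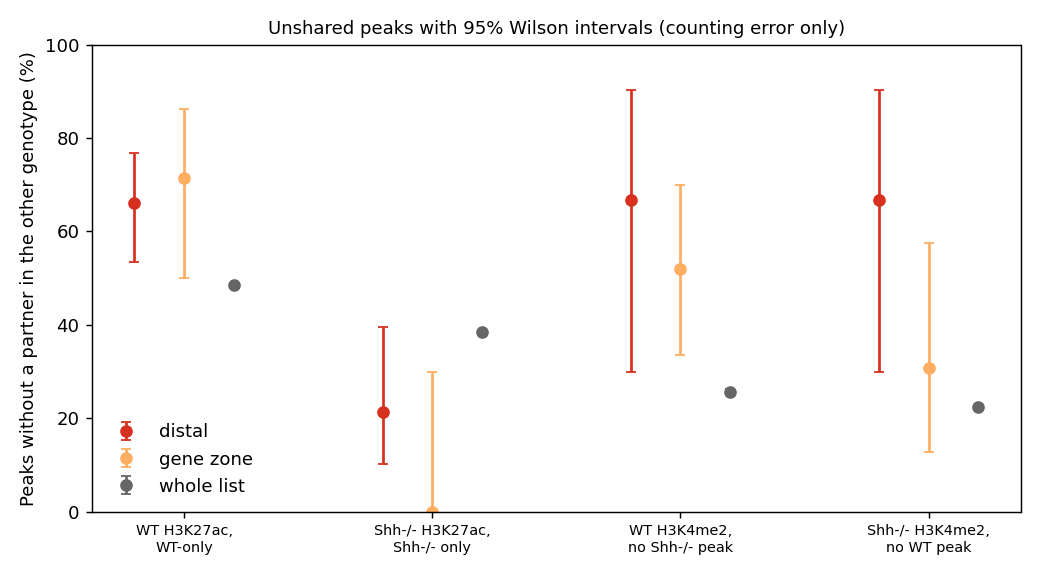
Percent of peaks with no partner peak in the other genotype, for distal Hand2 peaks, peaks within 20 kb of Hand2 and the whole list, with 95% Wilson intervals (counting error only). The distal WT-only share for H3K27ac, 66.1%, is above the whole-list share of 48.5%, and the Shh-/- only share, 21.4%, is below its whole-list share of 38.4%.

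The 12 distal elements that lacked any Shh-/- H3K27ac peak were on the whole weaker in WT limb than the 12 acetylated in both genotypes. Their median best WT rank was 21252.5 against 13105.5, and their WT peaks covered a median of 450 bp against 1075 bp. A few were better ranked. The element 336 kb upstream, chr8:56982250-56984599, had 3 WT peaks, the best of them 1350 bp wide with a log2 ratio of ChIP to input of 4.73 and rank 4524 of 49679. It had no peak in any other list. The element 611 kb upstream, chr8:56706100-56710349, was the widest distal element at 4250 bp. It held 5 WT H3K27ac peaks, led by 1 at rank 6800 (log2 ratio 4.35) and 1 at rank 7818 (log2 ratio 4.22). A WT H3K4me2 peak of 100 bp was also listed there, at an FDR of 0.066.

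Weaker elements of the same state lay 587 kb upstream (4 WT peaks, best log2 ratio 3.86), 681 kb upstream (2 peaks, 3.73) and 226 kb upstream (1 peak of 850 bp, 3.43). The WT-only element nearest the gene, 27 kb upstream at chr8:57292900-57294399, lay in Hand2os1, a long noncoding RNA gene on the strand opposite Hand2, and had 2 peaks with log2 ratios of 2.90 and 3.20. The remaining 6 WT-only elements had best log2 ratios from 2.49 to 3.27, beside a median of 3.09 over all WT peaks.

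Elements acetylated in both genotypes included the 3 with the best WT ranks among the distal elements. The element 486 kb upstream, chr8:56831050-56834699, had the best-ranked distal WT peak, 1750 bp wide at rank 2949 with a log2 ratio of 5.10. Its Shh-/- peaks were 700 bp and 450 bp wide, with log2 ratios of 3.84 and 3.27. At the element 357 kb upstream, chr8:56960450-56963899, a WT peak of 2100 bp (log2 ratio 4.75) stood against Shh-/- peaks of 850 bp each (3.31 and 3.73), and both genotypes had H3K4me2. The element 267 kb upstream, chr8:57052150-57054099, was the most alike of these 3, with 1 WT peak of 1400 bp (log2 ratio 4.80). Its 3 Shh-/- peaks covered 1450 bp, slightly more than in WT, and the widest was 950 bp (4.47).

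Some elements went the other way in log2 ratio or in covered bases. The element 404 kb upstream, chr8:56914350-56917199, held the best-ranked distal Shh-/- peak of the landscape, 600 bp at rank 1499 of 43916 with a log2 ratio of 5.29, beside a WT peak of 1800 bp with a log2 ratio of 4.45. The WT peaks there covered more bases but reached a lower ratio. The element 207 kb upstream, chr8:57110550-57114349, had a Shh-/- peak of 1300 bp (log2 ratio 3.88), where the 7 WT peaks were 100 to 300 bp wide with a best log2 ratio of 3.42. At the element 65 kb upstream, chr8:57254150-57255899, Shh-/- peaks covered 950 bp and WT peaks 500 bp, with best log2 ratios of 3.01 and 2.94. The element 91 kb upstream, chr8:57228850-57230299, was not of this kind, with best log2 ratios of 4.09 in WT and 3.03 in Shh-/- limb. No WT peak overlapped a Shh-/- peak there, although both genotypes had peaks.

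**Figure D3:**
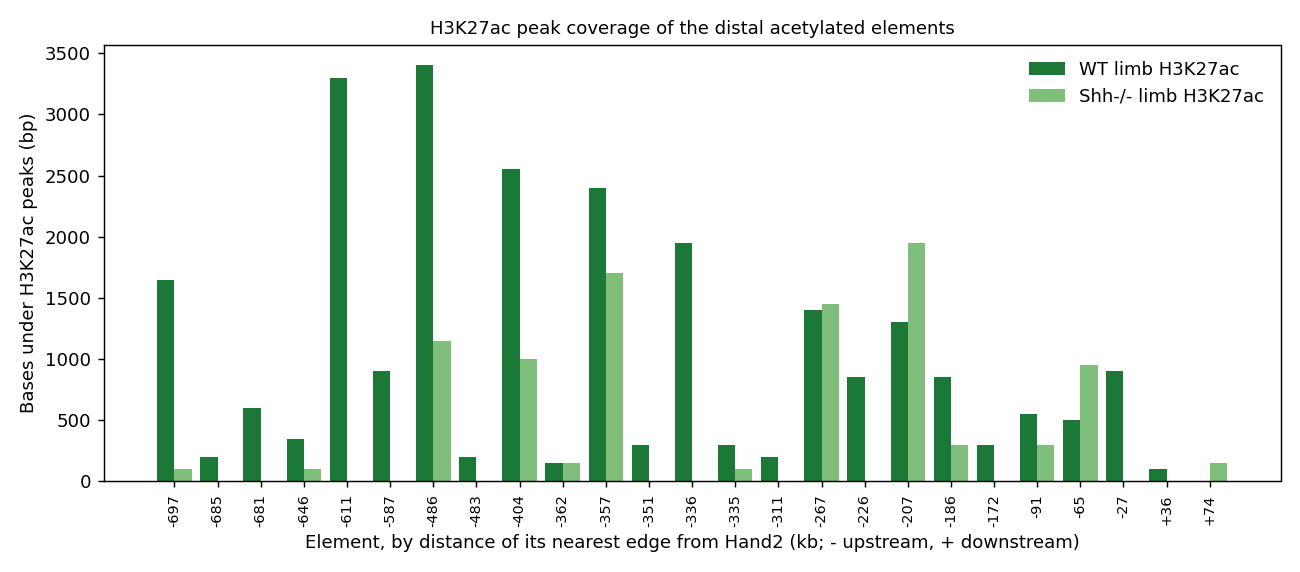
Bases under H3K27ac peaks in WT (dark) and Shh-/- limb (light) for the 25 distal acetylated elements, ordered by position and labelled by distance from Hand2 in kb. WT covers more bases in 8 of the 12 elements acetylated in both genotypes, and 12 elements have no Shh-/- bar.

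Over the 12 distal elements acetylated in both genotypes, WT peaks covered 15400 bp and Shh-/- peaks 9250 bp. WT covered more in 8 and Shh-/- in 3. The median log2 ratio of covered bases, WT over Shh-/-, was 1.11. It was 0.0931 for other such elements over 20 kb from every protein-coding gene. The best WT log2 ratio of ChIP to input was the higher in 9 of 12. WT was also the higher in most other elements acetylated in both, since only 39.9% of them had a difference below 0.07. The median difference, WT minus Shh-/-, was 0.54 in log2 ratio (-0.83 to 1.76). Among 4329 other elements acetylated in both and over 20 kb from protein-coding genes it was 0.15. Whether these medians differ was not tested. The 2 lists were called separately, and their ratios were not scaled to each other.

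**Figure D4:**
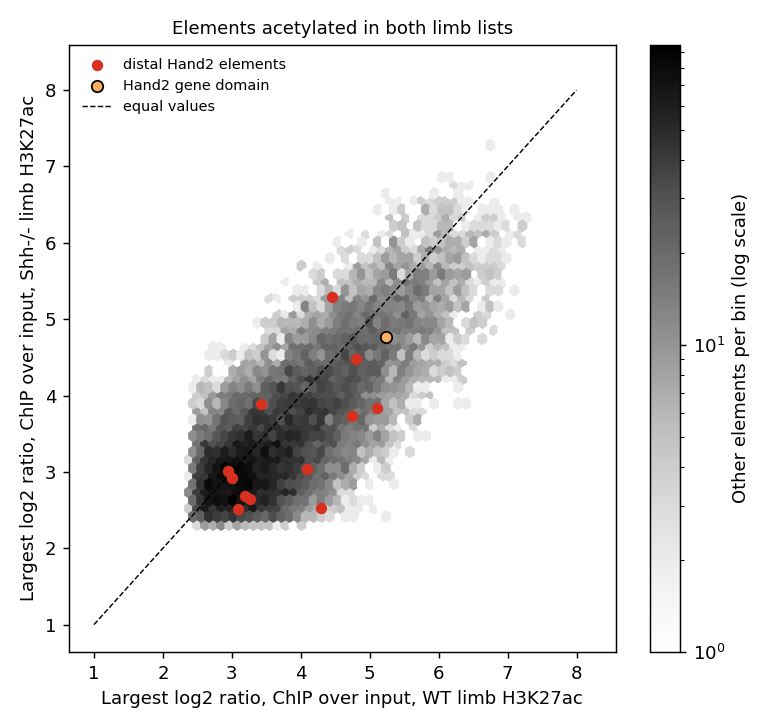
Largest log2 ratio of ChIP to input in WT (x axis) and Shh-/- limb (y axis) for elements acetylated in both, with distal Hand2 elements in red, the Hand2 gene domain in orange and all other elements as grey bins (log colour scale). The element 404 kb upstream lies above the line of equal values and the element 697 kb upstream farthest below it.

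H3K4me2 was sparse away from the gene. Only 4 of 59 distal WT H3K27ac peaks overlapped a WT H3K4me2 peak (6.78%, 2.67% to 16.2%), while 32.1% of the whole WT list did. In Shh-/- limb it was 2 of 28 (7.14%), beside 31.5% of that list. By element, 4 of 25 distal acetylated elements had H3K4me2 in either genotype, beside 18.4% of acetylated elements over 20 kb from protein-coding genes, so the element count was near the background. Of 6 distal WT H3K4me2 peaks, 4 had no Shh-/- H3K4me2 peak (66.7%, 30% to 90.3%; whole list 25.7%), and of 6 distal Shh-/- H3K4me2 peaks 4 had no WT peak (66.7%, 30% to 90.3%; whole list 22.5%). With 6 peaks in each, those intervals leave the shares poorly fixed. At the element 357 kb upstream, an unshared WT peak and an unshared Shh-/- peak touched without overlapping. The unshared WT peak 611 kb upstream had an FDR of 0.066.

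The strongest distal H3K4me2 lay 697 kb upstream, at chr8:56620350-56624149, and was present in both genotypes, with log2 ratios of 4.13 in WT and 4.36 in Shh-/- limb. Its H3K27ac differed, with 4 WT peaks up to a log2 ratio of 4.29 and 1 Shh-/- peak of 100 bp at 2.53. This difference of 1.76 exceeded that of 98.3% of other elements acetylated in both. It was also the 1 distal element with an H3K27me3 peak under an FDR of 0.05, where the mark lay at the far edge and overlapped no acetylated base.

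The other 7 distal elements with H3K27me3 were single peaks of 100 or 200 bp without any other mark. Their FDRs ran from 0.0599 to 0.246. Among distal WT H3K27ac peaks, 1 of 59 overlapped H3K27me3 of Shh-/- limb (1.69%, beside 0.725% of the whole list), and that peak was in the part of the gene domain lying over 20 kb downstream. No distal Shh-/- H3K27ac peak did, 0 of 28, beside 0.701% of the list. Of the 12 distal elements acetylated in WT only, 0 had an H3K27me3 peak, and 1.44% of 2782 such elements over 20 kb from every protein-coding gene did, so a count of 0 was near the background.

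Around the gene the picture was different. Within 20 kb of Hand2, H3K27ac covered 13400 bp in WT limb and 2950 bp in Shh-/- limb, and H3K27me3 in Shh-/- limb covered 20350 bp. A pair of WT peaks spanned the promoter and gene, 1 of 1750 bp at rank 3206 (log2 ratio 5.04) and 1 of 4300 bp at rank 2491 (5.23), and covered 98.6% of the gene body. In Shh-/- limb 4 smaller peaks covered 49.3%, the best of them 750 bp at rank 3123 with a log2 ratio of 4.76. Of 21 WT peaks in this zone, 15 were WT-only (71.4%, 50% to 86.2%), beside 48.5% of the whole list. Among WT peaks in the upper 50% by rank it was 6 of 12 (50%, 25.4% to 74.6%), beside 24.9%. Of the Shh-/- peaks, 0 of 9 lacked a WT peak, beside 38.4% of the whole Shh-/- list.

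H3K27me3 ran as 36 peaks from chr8:57311600 to chr8:57350899, with the best rank, 1397 of 20846, at the promoter (log2 ratio 3.81). The outermost peaks had FDRs of 0.071 and 0.106, so the ends are loosely set. Over the window, 29 of 45 H3K27me3 peaks had an FDR under 0.05, beside 47.2% of that list. All 9 Shh-/- H3K27ac peaks of the gene zone overlapped an H3K27me3 peak, and 79.7% of their bases did, whereas 0.701% of the Shh-/- H3K27ac list overlapped H3K27me3. WT H3K27ac of the zone also lay on this Shh-/- H3K27me3, with 14 of 21 peaks (66.7%, beside 0.725% of the WT list) and 75% of bases. The H3K27me3 peaks covered 46.6% of the zone. H3K27me3 in WT limb was not analysed here. H3K4me2 covered 7750 bp in WT and 6850 bp in Shh-/- limb, with a Shh-/- promoter peak of 1900 bp at rank 1119 (log2 ratio 4.59). Of the WT H3K4me2 peaks, 13 of 25 had no Shh-/- partner (52%, 33.5% to 70%), beside 25.7% of the whole list. Many of these peaks were weak. Over the window, 22 of 31 WT H3K4me2 peaks had an FDR under 0.05, beside 87.9% of the whole list. The share was not recomputed by rank or FDR, and the study reported almost no H3K4me2 change between genotypes. Of the Shh-/- H3K4me2 peaks, 4 of 13 had no WT partner (30.8%, 12.7% to 57.6%), beside 22.5%.

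**Figure D5:**
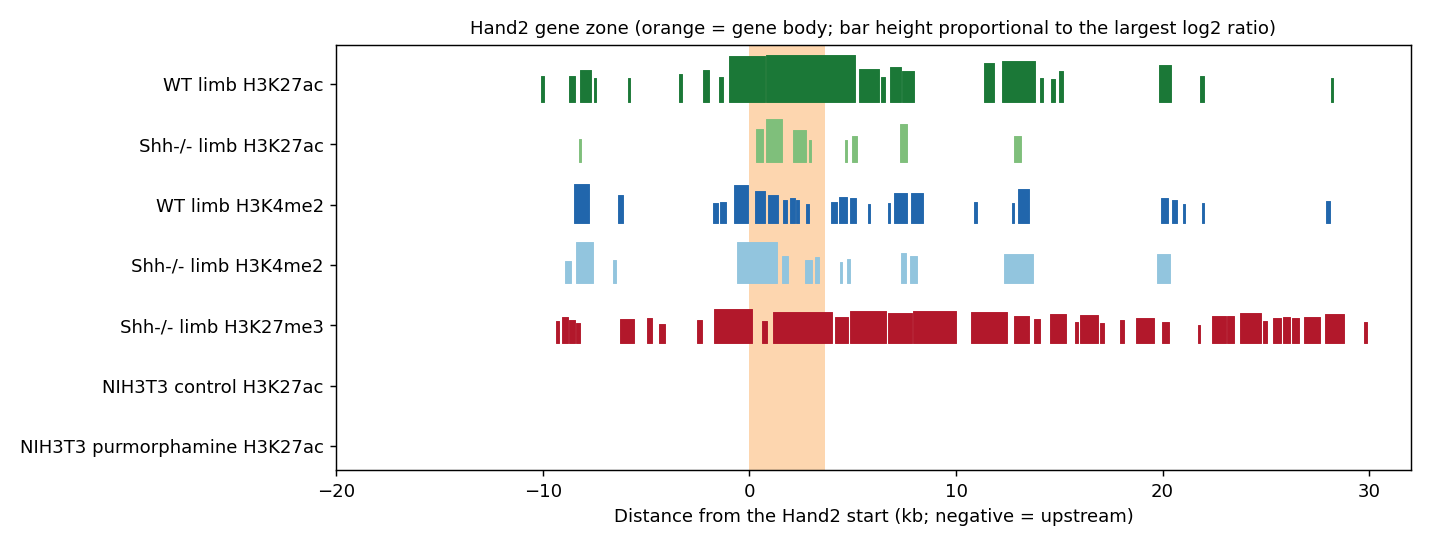
Peaks of the 7 lists within 20 kb before and 32 kb after the Hand2 start, by distance in kb, with the gene body in orange and bar height proportional to the peak's log2 ratio of ChIP to input. WT H3K27ac spans the gene, Shh-/- H3K27ac is broken into short peaks, and H3K27me3 runs on past the gene.

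In NIH3T3 cells the landscape was nearly empty. Of the 25 distal limb-acetylated elements, 24 had no NIH3T3 peak, beside 78.3% of limb-acetylated elements over 20 kb from protein-coding genes. The exception, 74 kb downstream, was also the 1 element acetylated in Shh-/- but not WT limb (150 bp, log2 ratio 2.47). The element 75 kb downstream, at the edge of the window, was listed in both NIH3T3 conditions, with 750 bp in control (log2 ratio 3.70) and 100 bp with purmorphamine (2.31). No peak lay within 20 kb of Hand2 in either condition. Per the labels, limb and NIH3T3 H3K27ac were made with antibodies from different suppliers. The study's methods name both suppliers for conventional ChIP, but its reagent list gives 1 for conventional ChIP-seq and the other for ChIP-qPCR. If the labels hold, antibody and cell type cannot be told apart here.

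For the gene with 20 kb on either side, Shh-/- H3K27ac covered 22% of the WT bases at Hand2. Of 13 posterior limb and HH genes with WT H3K27ac, 5 had under 50% of the WT bases, beside 19.9% of 14222 protein-coding genes. These were Gli1 (7.14%), a direct HH target, Ptch1 (31.1%), the HH receptor, Grem1 (0%), a BMP antagonist, and the transcription factors Tbx2 (37.1%) and Sall1 (38.3%). Of 8 anterior limb genes with WT H3K27ac, 0 had under 50% and 7 had more bases in Shh-/- than in WT limb, among them Alx4 (195%) and Irx5 (176%). Of the 13 posterior genes 0 had more, and of all protein-coding genes with WT H3K27ac 21.5% did. Both gene lists were chosen with earlier results of these data known, so these counts are a description. Hoxd10, Hoxd11, Hoxd12 and Hoxd13 lie side by side and share peaks within 20 kb, so the posterior counts are not of independent genes. All 14 posterior and all 10 anterior genes had H3K27me3 within 20 kb in Shh-/- limb, beside 36.9% of all protein-coding genes.

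The genes whose covered bases over the 7 lists were most like those of Hand2, by root mean square difference of log2(bp + 100), were Lhx2 (0.673), Zic5 (0.75), Sall3 (0.796), Hoxd13 (0.825) and Zic2 (0.836), where the median gene stood at 4.43. Their wide H3K27me3 in Shh-/- limb and no or little NIH3T3 acetylation follow from this choice, which used all 7 lists. Zic5 and Zic2 lie side by side, so their stretches with 20 kb on either side overlap. Shh-/- H3K27ac covered 22% of the WT bases at Hand2, 51.3% at Hoxd13, 57.6% at Sall3, 79.2% at Zic2, 88.6% at Zic5 and 104% at Lhx2.

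As a description of density, the window held 80 WT H3K27ac peaks. The median of the 2912 other tiles of 800 kb that had any WT H3K27ac peak was 13, and 17 of those tiles held at least as many as the window. The 54 WT-only peaks of the window were matched or passed by 3 tiles. By share, 67.5% of the window's WT peaks were WT-only, and 71 of 936 tiles with at least 20 WT peaks reached that (7.59%).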

How the data were processed

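Members and gene lists were chosen with earlier results of these data known. Per the study's methods and the submitters' processing notes, reads were aligned to mm10 with Bowtie2 2.2.5 and peaks were called with CisGenome against input, with both replicates of a condition entered together; limma is also named in those notes. The deposited lists give, for each peak, its rank, an FDR (a p-value type measure), −log10 of the smallest Poisson p, the largest log2 ratio of ChIP to input, a score and a width. The lists hold no read counts and the study's methods give only a lower bound on sequencing depth, so the exact depth of each library is unknown. The H3K27me3 antibody named in the labels differs from that in the methods. From the lists, sharing (overlap of 1 bp or more), covered bases, elements (a gap of 1 kb or less) and GLI matches were computed in Python 3.11.15 with pandas 2.3.3, and gene positions came from GENCODE. Every peak ended within its GRCm38 chromosome. Intervals are 95% Wilson intervals, for counting error only, and they treat neighbouring peaks as independent. By rule, up to 12 distal limb-acetylated elements were named, by WT rank, with those holding H3K27me3 or NIH3T3 peaks; the rest are given by counts, and a few were named after their values were seen. Functions were tested on simulated data. Alternatives covered overlap, ranking, FDR, distance, merging and motif mismatch.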

Additional observations from a re-analysis of the deposited data

How the results depend on the processing

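Of 66 alternatives computed, 52 stayed within the interval or 1.5 times of the value reported and 14 moved. Those that stayed include all 7 for each of the distal H3K4me2 shares. Their interval, 30% to 90.3%, is so wide that staying within it says little. The distal WT-only share of 66.1% became 79.7% where 50% of a peak had to be covered, 50.8% where a gap of 500 bp counted as shared, and 76.9% in the better-ranked 50% of every list. The Shh-/- only share fell to 3.57% with the 500 bp gap, and the gene-zone WT-only share rose to 100% with the 50% overlap. Whole-list shares were not recomputed under these settings, so the whole-list shares given above are no background for these values. The better-ranked 50% of every list left 21 distal elements, 26 distal WT H3K27ac peaks and 1 element with H3K27me3; an FDR under 0.05 also left 1. Elements made from touching peaks only numbered 82, of which 37 were acetylated in WT and not in Shh-/- limb, 60 were acetylated in limb without NIH3T3 and 17 had H3K27me3. With 1 mismatch allowed, 6 distal elements held the GLI consensus. The cause of these moves was not tested. No paired analysis was possible because each list pools both replicates, and for the same reason leaving out a replicate could not be run.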
